A study of Mus musculus with 33 samples.

Results

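The genes of the glutathione transferase and glutathione peroxidase families were followed in mouse embryonic stem cells (ESCs) that lack heterochromatin protein 1 (HP1) or the histone methyltransferase SETDB1. Members were taken by symbol alone, as the genes named *Gsta*, *Gstk*, *Gstm*, *Gsto*, *Gstp*, *Gstt* or *Gstz* with a number, *Mgst* with 1 digit or *Gpx* with 1 digit, and 33 of the 55487 genes in the tables met this rule. The families were selected on a measured value, the fall of *Gpx2* in *Setdb1* knockout cells, which was among the largest, so values of the *Setdb1* comparison are given below as a description without a test. RNA-seq was available for 11 conditions with 3 libraries each, all from C57BL/6 ESCs labelled as total RNA. They were 2 sets of *wild-type* ESCs (A and B), knockouts of *Hp1α* (gene *Cbx5*), *Hp1β* (*Cbx1*) or *Hp1γ* (*Cbx3*), the double knockouts *Hp1α/β*, *Hp1α/γ* and *Hp1β/γ*, the triple knockout *Hp1α/β/γ*, ESCs with a floxed *Setdb1* gene (*Setdb1* F/F) and *Setdb1* knockout cells. Per the study's methods, single and double mutants were constitutive CRISPR lines, whereas the last *Hp1γ* or *Setdb1* copies were removed by Cre shortly before harvest, and the ESCs had been grown on feeder fibroblasts that were depleted by plating on gelatin. A mutant line may therefore be 1 clone, and p-values measure the spread between libraries of that line.

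Glutathione transferases join the tripeptide glutathione to reactive electrophiles, which makes these compounds more soluble and less toxic. The soluble enzymes fall into classes named by Greek letters (alpha, mu, omega, pi, theta, zeta), the kappa enzyme resides in mitochondria and peroxisomes, and the microsomal enzymes (*Mgst*) are an unrelated membrane family. Glutathione peroxidases use glutathione to reduce hydrogen peroxide and lipid hydroperoxides. Several of them, among them the enzymes of *Gpx1*, *Gpx2*, *Gpx3* and *Gpx4*, carry selenocysteine in the active site, and *Gpx4* protects membranes from lipid peroxidation and cells from ferroptosis. Many transferase genes are known targets of the oxidant-responsive factor NRF2, which binds the antioxidant response element. HP1 proteins bind histone H3 methylated at lysine 9, the mark that SETDB1 deposits.

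The 33 members comprise 8 peroxidases, 4 alpha, 7 mu, 2 omega, 3 pi, 4 theta, 1 zeta, 1 kappa and 3 microsomal genes. Several classes sit in clusters on GRCm38, as annotated by GENCODE M21. The 7 mu genes lie on chromosome 3 between 107895821 and 108044894, a span of 149074 bases, in the order *Gstm5*, *Gstm7*, *Gstm6*, *Gstm3*, *Gstm2*, *Gstm1* and *Gstm4*. The theta genes are on chromosome 10 and the pi genes on chromosome 19. Some members are near copies of other genes, so reads may be divided between them. Of the 100-base windows of *Gstp2* transcripts, 46.9% also occur in another gene (*Gstp1* or *Gstp-ps*), and the share was 25.1% for *Gstp1*, 25.2% for *Gpx4* (shared with the pseudogene *Gpx4-ps2*), 24.3% for *Gsta1* and 18.2% for *Gsta2*. It was 1.6% for *Gpx2* and 3.4% for *Gstm1*, and values of *Gstp1* and *Gstp2* are uncertain in how they divide between both genes.

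Total counts per library ran from 17330936 to 25743149, and levels are given as counts in 1000000 counts of a library after TMM scaling of all 33 libraries (CPM). The targeted genes followed their labels. *Cbx5* was at 85.1 to 286 CPM in the lines without *Hp1α* and at 415 to 489 CPM in the other Hp1 and *wild-type* lines, *Cbx1* at 43.9 to 111 CPM without *Hp1β* against 356 to 463 CPM, and *Cbx3* at 61.7 to 100.3 CPM without *Hp1γ* against 157 to 221 CPM. *Setdb1* had 68.5 to 71.9 CPM in *Setdb1* knockout cells and 129.9 to 135 CPM in *Setdb1* F/F ESCs. Transcripts thus remained in each knockout. All 12 ESC markers had counts in each condition. Summed, they gave 4159 to 4403 CPM in the *wild-type* libraries, 1701 to 1743 CPM in *Hp1α/β/γ* knockout cells, 6774 to 9733 CPM in *Hp1α/γ* knockout cells, 8423 to 8466 CPM in *Setdb1* F/F ESCs and 5485 to 5520 CPM in *Setdb1* knockout cells. The 18 feeder fibroblast markers summed to 63.0 to 94.9 CPM in the *wild-type* libraries, 45.3 to 50.3 CPM in *Hp1α/β/γ* cells, 35.2 to 35.9 CPM in *Hp1α/γ* cells and 32.9 to 40.0 CPM in the *Setdb1* lines, with *Fap* at 0 in all 33 libraries and *Col1a1* at 0.715 to 22.6 CPM. The second *Hp1α/γ* library stood apart, with a mean correlation of 0.982 with the other libraries of its group. The other *Hp1α/γ* libraries had 0.989 and 0.990, and libraries of the other groups had at least 0.995. Results of *Hp1α/γ* cells are therefore also given without it.

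Promoter sequences of members with large or contrasting changes are shown here for their content of CpG, the dinucleotide at which DNA is methylated in mammals. They were taken from RefSeq windows on GRCm38.p6, which matched 31 of 33 members (not *Gsta4* and *Gstt2*) with 43 windows. Of several windows of a gene, CpG was counted in the window nearest to the gene's 5' end in GENCODE M21. For *Gpx4* and other members this need not be the start of the abundant transcript, and CpG at other starts is not given. Each sequence is the 100 bases nearest upstream of the start that touch no annotated exon, on the strand of the gene, with CpG in capitals. *Gpx2* is the member with the largest fall in *Setdb1* knockout cells, and *Gpx4* is a peroxidase with a smaller fall there. The 4 mu genes lie beside each other, and *Gstp1* and *Gstp2* were raised in several Hp1 mutants.
*Gpx2*, chr12:76795555-76795654, minus strand: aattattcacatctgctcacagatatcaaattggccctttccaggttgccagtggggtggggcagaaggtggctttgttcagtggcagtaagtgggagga
*Gpx4*, chr10:80047066-80047165, plus strand: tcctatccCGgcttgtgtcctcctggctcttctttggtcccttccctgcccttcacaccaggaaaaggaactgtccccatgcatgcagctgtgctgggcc
*Gstm1*, chr3:108017974-108018073, minus strand: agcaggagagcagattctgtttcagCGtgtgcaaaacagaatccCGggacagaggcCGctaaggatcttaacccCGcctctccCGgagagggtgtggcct
*Gstm2*, chr3:107986454-107986553, minus strand: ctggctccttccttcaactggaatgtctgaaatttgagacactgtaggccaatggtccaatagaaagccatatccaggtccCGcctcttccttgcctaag
*Gstm3*, chr3:107969284-107969383, minus strand: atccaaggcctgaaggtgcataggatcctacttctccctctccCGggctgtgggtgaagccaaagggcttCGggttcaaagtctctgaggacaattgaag
*Gstm6*, chr3:107943750-107943849, minus strand: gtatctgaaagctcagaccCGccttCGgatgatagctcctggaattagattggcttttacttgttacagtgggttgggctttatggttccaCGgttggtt
*Gstp1*, chr19:4037986-4038085, minus strand: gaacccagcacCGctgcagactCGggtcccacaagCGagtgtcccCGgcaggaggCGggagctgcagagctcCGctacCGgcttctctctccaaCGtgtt
*Gstp2*, chr19:4042264-4042363, minus strand: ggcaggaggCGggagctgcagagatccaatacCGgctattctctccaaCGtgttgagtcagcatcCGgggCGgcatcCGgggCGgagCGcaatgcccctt

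Over the 250 bases before the start, *Gpx2* had 0 CpG, *Gstm2* 3, *Gstm3* 4, *Gstm6* 4, *Gstm7* 4 and *Gpx4* 2, while *Gstm1* had 13, *Gstm4* 14, *Gstm5* 13, *Gstp2* 12 and *Gstp1* 18. The median was 6 CpG over the 31 members and 6 over the 27025 genes of the table. Members with few and with many CpG are thus found within the same class. The core of the antioxidant response element, TGACNNNGC, was searched on both strands in windows from 250 bases before to 50 bases after the start. It was present in 4 of 31 members (12.9%) and in 3781 of 27025 genes (14%). The 4 matches are shown with 10 flanking bases on each side and the match in capitals, and the match of *Mgst1* is on the reverse strand.
*Gsta3*, chr1:21240454-21240482: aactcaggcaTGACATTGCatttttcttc
*Gstm5*, chr3:107895802-107895830: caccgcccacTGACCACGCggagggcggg
*Gstm7*, chr3:107931725-107931753: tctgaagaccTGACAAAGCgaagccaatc
*Mgst1*, chr6:138140461-138140489: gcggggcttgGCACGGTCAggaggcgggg
These matches are a description of letters in the window and not of binding.

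Levels of different genes were compared on the authors' TPM, which is scaled per transcript length. In *wild-type* set A, the highest level was that of *Gpx4* with 508 ± 14.6 TPM (SD, n = 3), followed by *Gsta4* with 428 ± 1.97 TPM (SD, n = 3), *Gpx1* with 296 ± 5.98 TPM (SD, n = 3), *Gsto1* with 149 ± 0.927 TPM (SD, n = 3), *Gstm1* with 98.2 ± 5.16 TPM (SD, n = 3) and *Gstp1* with 97.1 ± 4.77 TPM (SD, n = 3). The levels of *Gstm1* and *Gstp1* did not differ beyond their spread. *Gpx2* ranked 16 with 11.8 ± 0.282 TPM (SD, n = 3). The number of members with a mean over 1 TPM ran from 23 in *Setdb1* knockout cells to 29 in *Hp1α/β/γ* cells. *Gpx5*, known from the epididymis, had no count in any of the 33 libraries, which allows a level of up to 0.116 to 0.175 CPM in a library for counting error alone. *Gsta1*, *Gsta2* and *Gstt4* had totals of 23, 84 and 19 counts over all libraries and did not pass the filter on low counts in any comparison.

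To ask which members depend on HP1, each Hp1 mutant was set against the *wild-type* libraries of its deposited table. Of the 33 members, 26 to 29 passed the filter in these comparisons. A call required that the adjusted p was under 0.05 and that the level differed by more than 1 on the log2 scale. Adjusted p values below come from the quasi-likelihood test of edgeR and were adjusted over all genes tested by the Benjamini-Hochberg method. Over the 7 mutants, 23 members were called at least once, 6 were tested but never called (*Gstm2*, *Gstm4*, *Gstm5*, *Gsto1*, *Gstz1* and *Mgst2*) and 4 were never tested. The share of all genes called at least once over the 7 mutants is not given, so nothing is read from the count of 23. The plot of fold changes by comparison shows all 33 members. *Gpx2* was called in both directions, higher in *Hp1α/γ* and lower in *Hp1α/β/γ* cells.

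**Figure D1:**
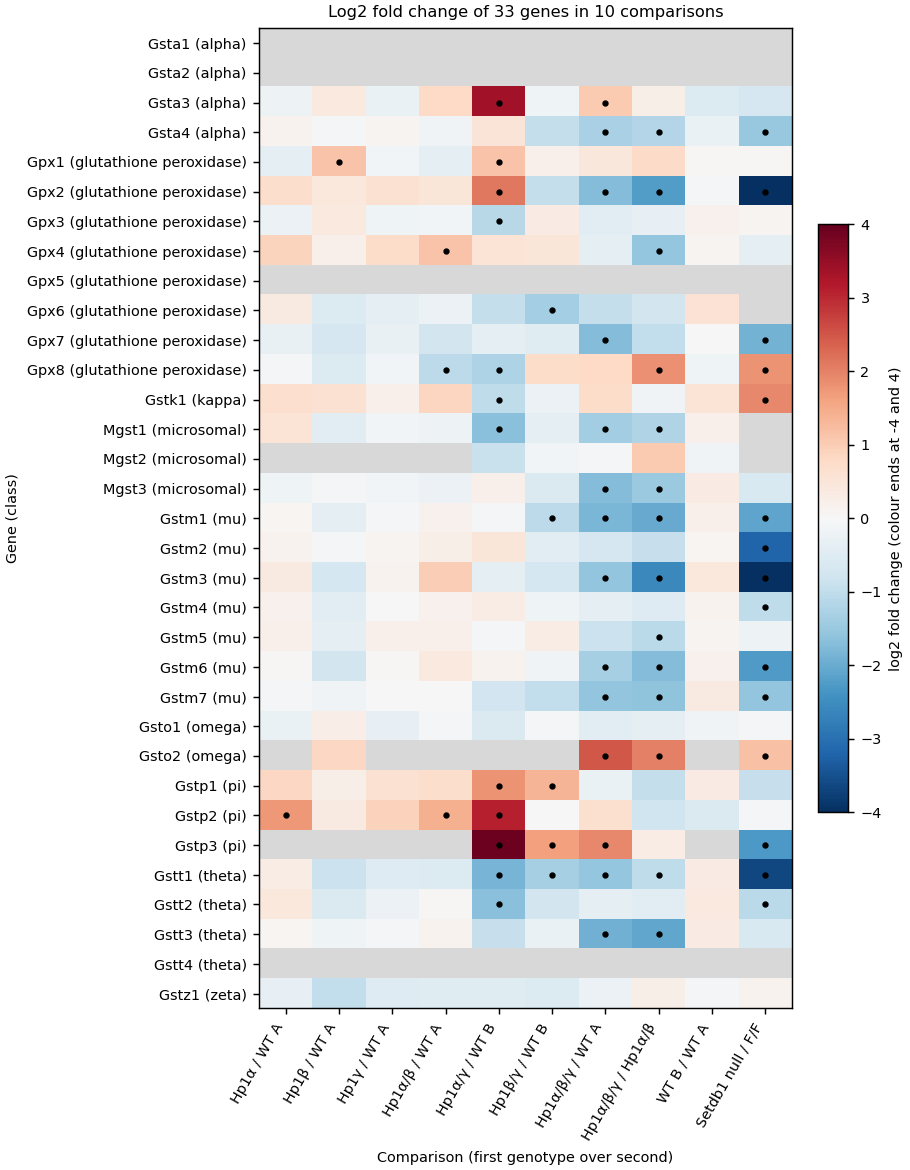
Log2 fold changes of the 33 members (rows, with their class) in 10 comparisons (columns, first genotype over second). Red is higher and blue is lower, with colours ending at −4 and 4, grey marks members that did not pass the filter on low counts, and dots mark calls (adjusted p under 0.05, log2 fold change beyond 1 in either direction). The column of *Hp1α/β/γ* against set A holds 11 members called lower of 29 tested, beside 17.1% of all genes. Dots in the *Setdb1* column only describe which members were past the thresholds, since that comparison chose the families.

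In the single knockouts few members were called. *Hp1α* knockout had 1 of 26 called higher and 0 lower, where 1.56% of all genes were called higher and 3.31% lower. *Hp1β* knockout had 1 of 27 called higher and 0 lower, beside 2.75% and 6.36% of all genes. *Hp1γ* knockout had 0 of 26 called by edgeR and by DESeq2, with 12 at an unadjusted p under 0.05, beside 2.04% of all genes called higher and 3.55% lower. *Hp1α/β* knockout had 2 higher and 1 lower of 26, beside 2.96% and 5.19% of all genes. The double knockouts without *Hp1γ* had more. The *Hp1α/γ* cells had 6 members higher and 6 lower of 28 (21.4% each), beside 6.75% of all genes called higher and 16.3% lower. Without the second *Hp1α/γ* library 5 were higher and 9 lower, with 23.4% of all genes called. The call of *Gpx1* was then lost, and *Gstm7*, *Gstt3* and *Mgst2* were newly called lower. Without *Hp1α/γ* library 1 or set B library 3, 6 were higher and 3 lower, and without set B library 1, 6 and 4. With at least 10 counts required in every library, *Gsta3* and *Gstp3* were left out, and 4 were higher and 6 lower. In *Hp1β/γ* cells 2 were higher and 3 lower of 28, beside 7.32% and 4.54%. In *Hp1α/β/γ* cells 3 members were higher and 11 lower of 29 (10.3% and 37.9%), beside 25.1% and 17.1% of all genes. The median log2 fold change in *Hp1α/β/γ* cells was −0.45 over the members tested and 0.04 over all genes. With at least 10 counts required in every library, 1 was higher and 3 lower in *Hp1β/γ* cells, where *Gstp3* was left out. At that filter 1 was higher and 11 lower in *Hp1α/β/γ* cells, where *Gsto2* and *Gstp3* were left out. The shares of all genes at that filter, or without set B libraries or *Hp1α/γ* library 1, are not given. Set B compared with set A of *wild-type* ESCs had 0 of 27 members called by edgeR and by DESeq2, with 12 at an unadjusted p under 0.05, where 2.55% of all genes were called higher and 3.12% lower. The share of all genes at an unadjusted p under 0.05 is not given, so nothing is read from the counts of 12.

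The peroxidase genes did not move as a group. In *Hp1α/β/γ* cells 2 of 7 tested were lower, while the other 5 had log2 fold changes from −0.94 (*Gpx6*) to 0.79 (*Gpx8*). *Gpx2*, a selenocysteine peroxidase of the gut epithelium, had 2.19, 2.28 and 1.56 CPM in *Hp1α/β/γ* cells and 6.66, 6.60 and 6.30 CPM in set A. All mutant libraries were below all *wild-type* libraries. It fell by 1.73 on the log2 scale (SE 0.194, edgeR adjusted p = 1.2e-07). *Gpx2* then stood at 3.12, 3.01 and 3.25 CPM in *Hp1β/γ* cells and 5.65, 5.95 and 6.69 CPM in set B, a log2 fold change of −0.96 (SE 0.144, edgeR adjusted p = 4.93e-05) that missed the fold threshold. It was called with set A as the control (−1.06).

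*Gpx2* was higher than in its *wild-type* set in other mutants. In *Hp1α/γ* cells it had 19.2, 39.8 and 22.6 CPM, all above set B, a log2 fold change of 2.1 (SE 0.261, edgeR adjusted p = 0.000754). Without the second *Hp1α/γ* library the value was 1.77. *Hp1α* knockout ESCs had 9.21, 11.3 and 11.4 CPM, *Hp1γ* knockout 9.98, 9.87 and 9.70 CPM, and *Hp1α/β* knockout 8.13, 10.1 and 9.49 CPM, with log2 fold changes of 0.72, 0.60 and 0.50 that passed the adjusted p but not the fold threshold. In *Hp1β* knockout ESCs *Gpx2* had 9.69, 10.3 and 6.46 CPM, which overlap set A. By mean level the order was *Hp1α/γ* (27.2 CPM), *Hp1α* (10.7), *Hp1γ* (9.85), *Hp1α/β* (9.24), *Hp1β* (8.82), *Setdb1* F/F (6.71), set A (6.52), set B (6.10), *Hp1β/γ* (3.12), *Hp1α/β/γ* (2.01) and *Setdb1* knockout (0.195). From *Hp1α* down to set B each condition overlapped with the next in this order, while *Hp1α/γ*, *Hp1β/γ*, *Hp1α/β/γ* and *Setdb1* knockout cells did not overlap with their neighbours.

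*Gpx4*, the phospholipid hydroperoxide peroxidase, had higher levels than the control in every library of the single and double knockouts and was called in 1 of them. It had 260.2, 249.9 and 254 CPM in set A. The *Hp1α/β* knockout ESCs had 544, 581 and 563 CPM, a log2 fold change of 1.14 (SE 0.0327, edgeR adjusted p = 1.98e-14). *Hp1α* knockout ESCs had 462, 462 and 469.6 CPM (0.88), *Hp1γ* knockout 421, 426 and 416 CPM (0.73) and *Hp1β* knockout 310.4, 286 and 286 CPM (0.19), each with an edgeR adjusted p under 0.05. *Hp1β/γ* cells had 383, 385 and 392 CPM against 255, 293 and 274 CPM in set B (0.49, SE 0.0495, edgeR adjusted p = 7.83e-07). Of these mutants *Hp1α/β* had the highest levels. *Hp1α/β/γ* cells had 205, 202 and 190.1 CPM, all below set A, a log2 fold change of −0.38 (SE 0.0306, edgeR adjusted p = 8.47e-10). Compared with *Hp1α/β* ESCs, which have the double knockout that the triple knockout also carries, the log2 fold change was −1.53 (SE 0.0362, edgeR adjusted p = 1.89e-15). In *Hp1α/γ* cells *Gpx4* had 319, 622 and 314 CPM, where the second library stood apart, and its log2 fold change of 0.56 missed the adjusted p (edgeR, 0.101). Without that library it was 0.20. As given above, part of the *Gpx4* transcript is shared with a pseudogene.

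*Gpx1*, the abundant cytosolic peroxidase, was called higher in 2 mutants. *Hp1β* knockout ESCs had 346, 319 and 303 CPM and set A had 151, 144 and 140.3 CPM, a log2 fold change of 1.14 (SE 0.0494, edgeR adjusted p = 3.64e-08). *Hp1α/γ* cells had 274, 469 and 273 CPM against 143, 151 and 152 CPM in set B (1.14, SE 0.199, edgeR adjusted p = 0.00331). Without the second *Hp1α/γ* library the value was 0.88 and the call was lost. *Gpx1* had 196, 203 and 202 CPM in *Hp1α/β/γ* cells, above set A but short of the fold threshold.

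*Gpx7* and *Gpx8*, peroxidases of the endoplasmic reticulum, did not move together in *Hp1α/β/γ* cells. *Gpx7* had 4.83, 3.48 and 4.81 CPM against 13.9, 16.6 and 12.5 CPM in set A and fell by 1.73 on the log2 scale (SE 0.147, edgeR adjusted p = 2.19e-09). *Gpx8* had 7.11, 9.83 and 6.86 CPM against 4.99, 4.66 and 3.75 CPM, a log2 fold change of 0.79 below the fold threshold. Against *Hp1α/β* ESCs, with 1.34, 3.21 and 1.88 CPM, *Gpx8* was called higher (1.82, SE 0.249, edgeR adjusted p = 5.4e-06). *Gpx8* stayed under 5 CPM in *Hp1α/β* and *Hp1α/γ* cells and was called lower in both (−1.05 and −1.24). The first call was lost without *Hp1α/β* library 1 or 3 or set A library 1, and with set B as the control. The second was lost without *Hp1α/γ* library 1 or 3 or set B library 1 or 3. *Gpx3*, the secreted plasma peroxidase, had 9.30, 15.9 and 10.2 CPM in *Hp1α/γ* cells against 22.0, 22.3 and 29.9 CPM in set B, a log2 fold change of −1.12 (SE 0.217, edgeR adjusted p = 0.00518). That call was lost without *Hp1α/γ* library 1 (−0.98) or set B library 3 (−0.96), and with set A as the control (−0.93). *Gpx6*, an olfactory peroxidase, had at most 3 CPM in any library and was called lower in *Hp1β/γ* cells (−1.36), though not with set A as the control.

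**Figure D2:**
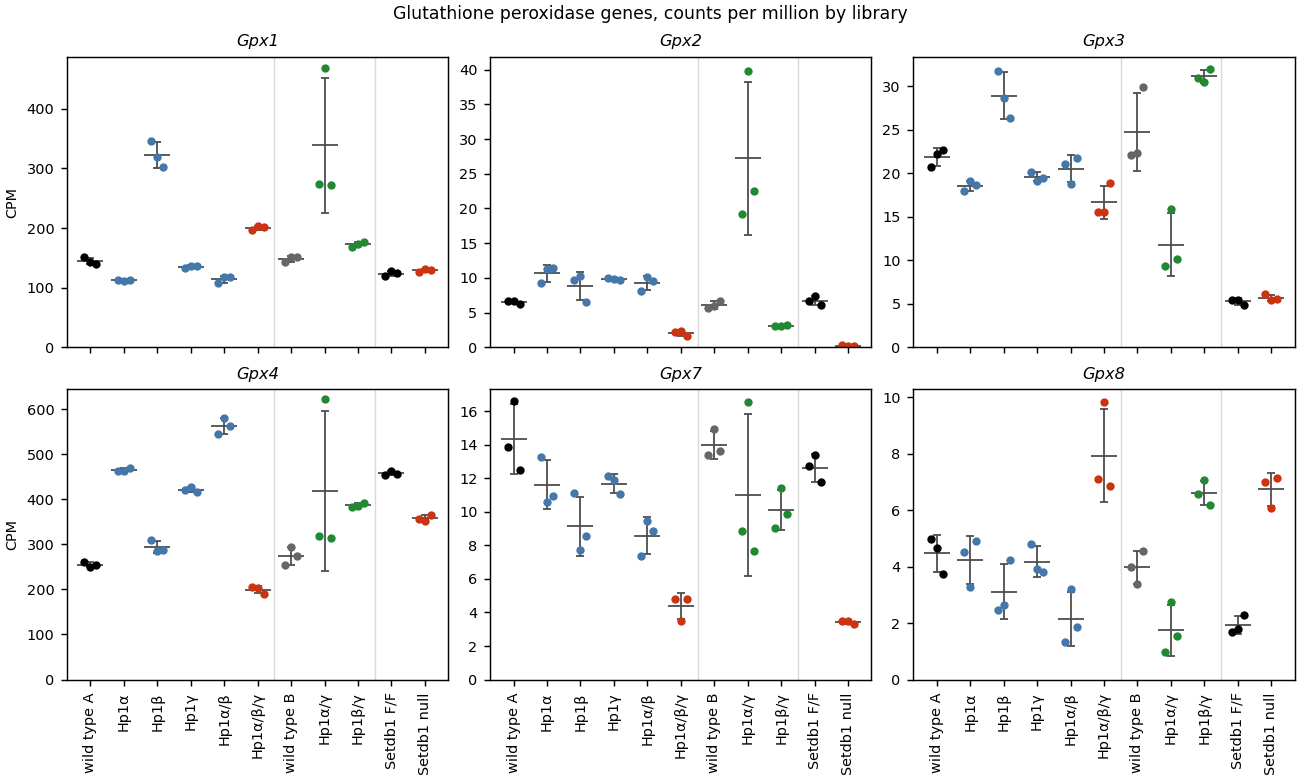
Levels of 6 glutathione peroxidase genes in CPM (linear axes from 0) by condition. Points are libraries, and bars are the mean and SD of 3 libraries, with vertical lines between the series of set A, set B and *Setdb1*. *Gpx2* sits at 0.143 to 0.252 CPM in *Setdb1* knockout cells and at 19.2 to 39.8 CPM in *Hp1α/γ* cells.

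Mu-class genes encode soluble transferases that are abundant in liver and act on a broad range of electrophiles. All 7 were tested in *Hp1α/β/γ* cells, where 4 were called lower. The other 3 also had negative log2 fold changes at an adjusted p under 0.05, of −0.68 (*Gstm2*), −0.87 (*Gstm5*) and −0.35 (*Gstm4*). *Gstm1*, the mu gene with the highest level, had 21.1, 20.5 and 23.0 CPM in *Hp1α/β/γ* cells and 78.9, 75.4 and 70.2 CPM in set A. It fell by 1.82 on the log2 scale (SE 0.0617, edgeR adjusted p = 1.27e-15). *Gstm3* had 1.88, 1.89 and 2.0 CPM against 5.73, 4.89 and 6.30 CPM (−1.58, SE 0.198, edgeR adjusted p = 5.78e-07). *Gstm6* had 2.33, 2.08 and 3.73 CPM against 7.44, 6.51 and 6.49 CPM (−1.34, SE 0.203, edgeR adjusted p = 6.44e-06). *Gstm7* stayed under 5 CPM and had a value of −1.59. For each of these genes the triple knockout libraries were all below those of set A.

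*Hp1α/β/γ* cells were also compared with *Hp1α/β* ESCs, since both groups lack *Hp1α* and *Hp1β*. Per the study's methods the triple knockout came from *Hp1α/β*-null cells with a floxed *Hp1γ* gene. A figure legend names RNA of such floxed cells given Cre or a control vector, and no condition here is labelled as the latter. The loss of *Hp1γ*, the line and the Cre treatment cannot be told apart. Of 29 members tested, 12 were lower and 2 higher (41.4% and 6.9%), beside 16.0% of all genes called lower and 25.4% called higher. *Gstm1* had 84.6, 86.2 and 85.9 CPM in *Hp1α/β* ESCs and was lower in the triple knockout by a log2 fold change of −2.02 (SE 0.0559, edgeR adjusted p = 1.14e-14). *Gstm3* had 10.1, 11.7 and 12 CPM in *Hp1α/β* ESCs (−2.58, SE 0.155, edgeR adjusted p = 2.05e-10). *Gstm6* had 8.90, 8.98 and 9.25 CPM there (−1.75), and *Gstm5* 8.85, 7.18 and 7.09 CPM against 4.16, 3.23 and 3.77 CPM (−1.08). The call of *Gstm5* was lost without triple knockout library 2 (−0.99) or *Hp1α/β* library 1 (−0.999).

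In *Hp1β/γ* cells 1 of the 7 mu genes was called. *Gstm1* had 41.7, 41.3 and 44.0 CPM against 82.4, 86.7 and 91.4 CPM in set B (−1.04, SE 0.0535, edgeR adjusted p = 3.69e-10), a call that was lost without set B library 3 (−0.998) and with set A as the control (−0.82). *Gstm7* and *Gstm3* had log2 fold changes of −0.99 and −0.70. In *Hp1α/γ* cells the 7 mu genes had log2 fold changes from −0.75 (*Gstm7*, edgeR adjusted p = 0.0508) to 0.48 (*Gstm2*, edgeR adjusted p = 0.056), with a median of −0.06. *Gstm1* had 71.6, 112 and 73.3 CPM there, around the level of set B. *Gstm2* had 38.0, 59.1 and 36.4 CPM, with the second library again the highest. Without the second *Hp1α/γ* library *Gstm7* was called lower.

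The genes beside the mu cluster were few in these cells. Of 19 other genes annotated within 100000 bases of it, 4 were tested in *Hp1α/β/γ* cells, and *Gnat2* and *4933431E20Rik* were called, 1 higher and 1 lower. In *Setdb1* knockout cells 5 were tested and *Gm12500* was lower. These genes are named for their calls, after their values were seen.

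**Figure D3:**
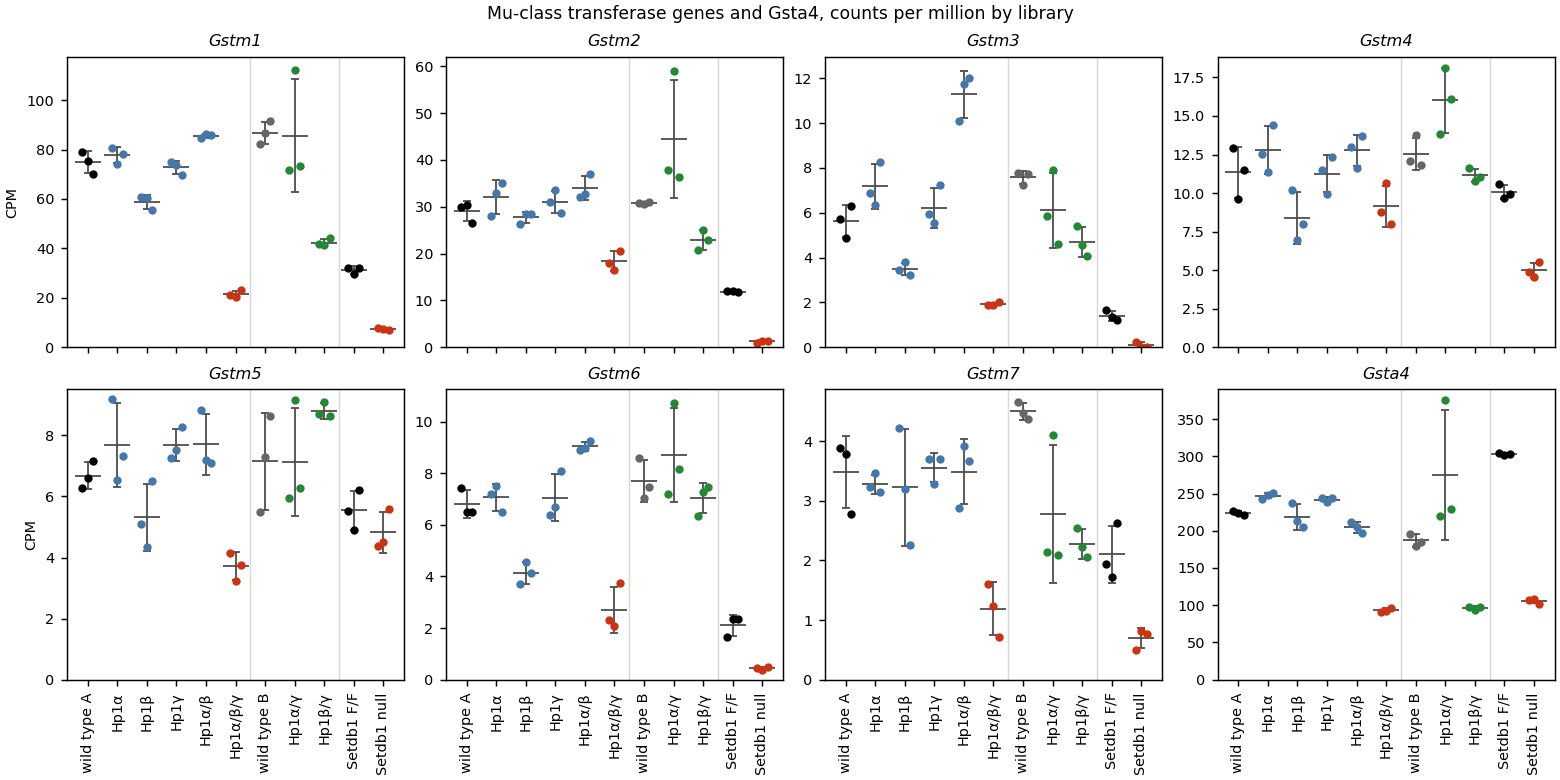
Levels of the 7 mu-class genes and *Gsta4* in CPM (linear axes from 0) by condition. Points are libraries, bars the mean and SD of 3 libraries. *Gstm1* lies at 20.5 to 23.0 CPM in *Hp1α/β/γ* cells and at 70.2 to 91.4 CPM in the *wild-type* libraries.

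**Figure D4:**
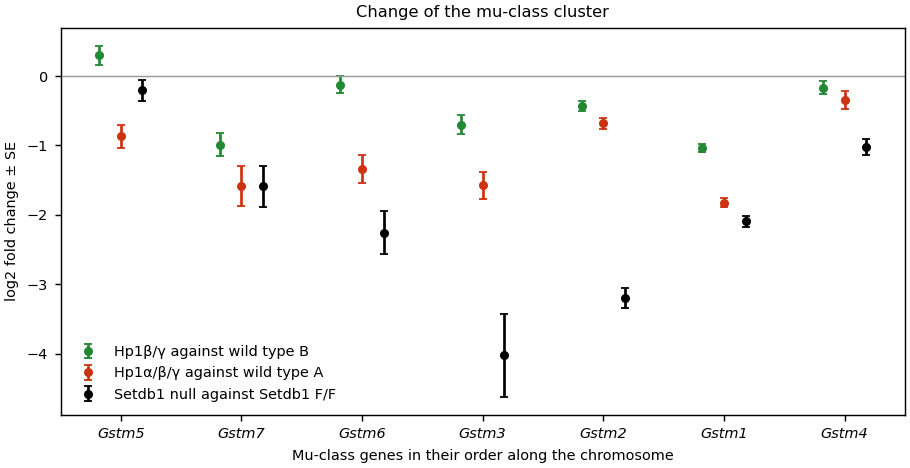
Log2 fold change with its SE for the mu-class genes in their order along chromosome 3. Shown are *Hp1β/γ* against set B (green), *Hp1α/β/γ* against set A (red) and *Setdb1* knockout cells against *Setdb1* F/F ESCs (black). *Gstm4* and *Gstm5*, at the ends of the cluster, had values of −0.35 and −0.87 in *Hp1α/β/γ* cells, while *Gstm1* had −1.82.

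Alpha-class genes include *Gsta4*, whose enzyme clears aldehydes from lipid peroxidation. It had 91.1, 91.7 and 96.7 CPM in *Hp1α/β/γ* cells and 227, 224 and 222 CPM in set A, and fell by 1.29 on the log2 scale (SE 0.0328, edgeR adjusted p = 1.53e-17). In *Hp1β/γ* cells it had 97.7, 93.2 and 97.7 CPM against 196, 179.7 and 185 CPM in set B, a log2 fold change of −0.96 under the fold threshold. The level of *Gsta4* was thus 93.2 ± 3.06 CPM (SD, n = 3) in *Hp1α/β/γ* cells and 96.2 ± 2.60 CPM (SD, n = 3) in *Hp1β/γ* cells. It was 243, 248 and 251 CPM in *Hp1α* knockout and 211, 205 and 198 CPM in *Hp1α/β* knockout ESCs.

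*Gsta3*, whose enzyme also takes part in steroid isomerisation, moved the other way. Levels of *Gsta3* in *Hp1α/γ* cells were 5.74, 11.2 and 8.12 CPM, and in set B 0.933, 0.985 and 0.410 CPM. Every mutant library was above every library of set B, with a log2 fold change of 3.37 (SE 0.362) that was 3.15 without the second *Hp1α/γ* library. With at least 10 counts required in every library *Gsta3* was left out there, since set B library 3 had 9 counts. *Gsta3* passed the main filter there through the *Hp1α/γ* libraries, so that this call is a description. In *Hp1α/β/γ* cells *Gsta3* had 2.33 to 2.63 CPM against 0.877 to 1.62 CPM in set A (1.06, edgeR adjusted p = 0.00343), a call that was lost without triple knockout library 2, set A library 2 or set A library 3.

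Pi-class genes, whose enzymes detoxify small electrophiles and bind stress kinases, were raised in several mutants. *Gstp1* and *Gstp2* were not called in the triple knockout against set A. *Gstp1* had 133, 259 and 130.3 CPM in *Hp1α/γ* cells and 121, 119.6 and 131 CPM in *Hp1β/γ* cells, all above the 45.3, 53.0 and 47.0 CPM of set B. The log2 fold changes were 1.79 (SE 0.255, edgeR adjusted p = 0.00135) and 1.35 (SE 0.0617, edgeR adjusted p = 8.45e-11). Without the second *Hp1α/γ* library the first value was 1.44. *Hp1α/β/γ* cells had 31.7, 34.8 and 31.8 CPM of *Gstp1* against 39.0, 37.0 and 39.3 CPM in set A, a log2 fold change of −0.26 (SE 0.0589, edgeR adjusted p = 0.000531).

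*Gstp2* had 13.4, 17.4 and 18.2 CPM in *Hp1α* knockout ESCs and 5.78, 6.10 and 2.93 CPM in set A (1.73, SE 0.176, edgeR adjusted p = 1.02e-07). It had 11.8, 15.9 and 12.1 CPM in *Hp1α/β* knockout ESCs (1.42, SE 0.191, edgeR adjusted p = 1.03e-05). In *Hp1α/γ* cells it had 20.2, 44.9 and 22.7 CPM against 4.37, 3.09 and 2.41 CPM in set B (3.10, SE 0.351, edgeR adjusted p = 0.000513), and 2.71 without the second library. In *Hp1α/β/γ* cells *Gstp2* had 7.06 to 8.41 CPM, all above set A, a log2 fold change of 0.63. This passed the adjusted p but not the fold threshold, and *Gstp2* was called higher with set B as the control. In *Hp1β/γ* cells its libraries ranged from 0.503 to 8.10 CPM, a spread not seen for *Gstp1* in the same libraries. *Gstp3* stayed under 5 CPM in all libraries and was called higher in *Hp1α/γ*, *Hp1β/γ* and *Hp1α/β/γ* cells, with 2.24 to 3.23, 0.483 to 0.580 and 0.447 to 0.645 CPM against at most 0.196 CPM in the *wild-type* libraries. It had 2 to 4 counts in each *wild-type* library and was tested in 3 of 7 mutants, where it passed the filter through the mutant libraries, so that these calls are a description. All 3 were lost with at least 10 counts required in every library. *Gstp3* also had 0.376 to 0.515 CPM in *Hp1α/β* ESCs, where it did not pass the main filter. It was called higher there with all 33 libraries in 1 fit. *Setdb1* F/F ESCs had 0.946 to 1.99 CPM.

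Theta-class genes, an old branch of the family that acts on small halogenated compounds, were lower in the mutants where they were called. *Gstt1* had 6.53, 8.01 and 6.69 CPM in set B. It had 1.80, 2.85 and 1.44 CPM in *Hp1α/γ* cells (−1.86, SE 0.249, edgeR adjusted p = 0.00104) and 2.90, 2.66 and 2.90 CPM in *Hp1β/γ* cells (−1.33, SE 0.147, edgeR adjusted p = 2.36e-06). With set A as the control, the latter was −0.999 and not called. In *Hp1α/β/γ* cells *Gstt1* had 1.88, 1.74 and 2.21 CPM against 5.59, 5.96 and 5.38 CPM in set A (−1.56, SE 0.195, edgeR adjusted p = 5.51e-07). *Gstt3* had 3.40, 2.78 and 2.41 CPM in *Hp1α/β/γ* cells against 10.3, 10.3 and 11.4 CPM (−1.93, SE 0.156, edgeR adjusted p = 1.04e-09). *Gstt2* was called in *Hp1α/γ* cells, with 5.5, 9.26 and 4.87 CPM against 19.9, 19.6 and 20.9 CPM (−1.67, SE 0.218, edgeR adjusted p = 0.00091). Without the second *Hp1α/γ* library the values of *Gstt1* and *Gstt2* were −2.13 and −1.96.

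**Figure D5:**
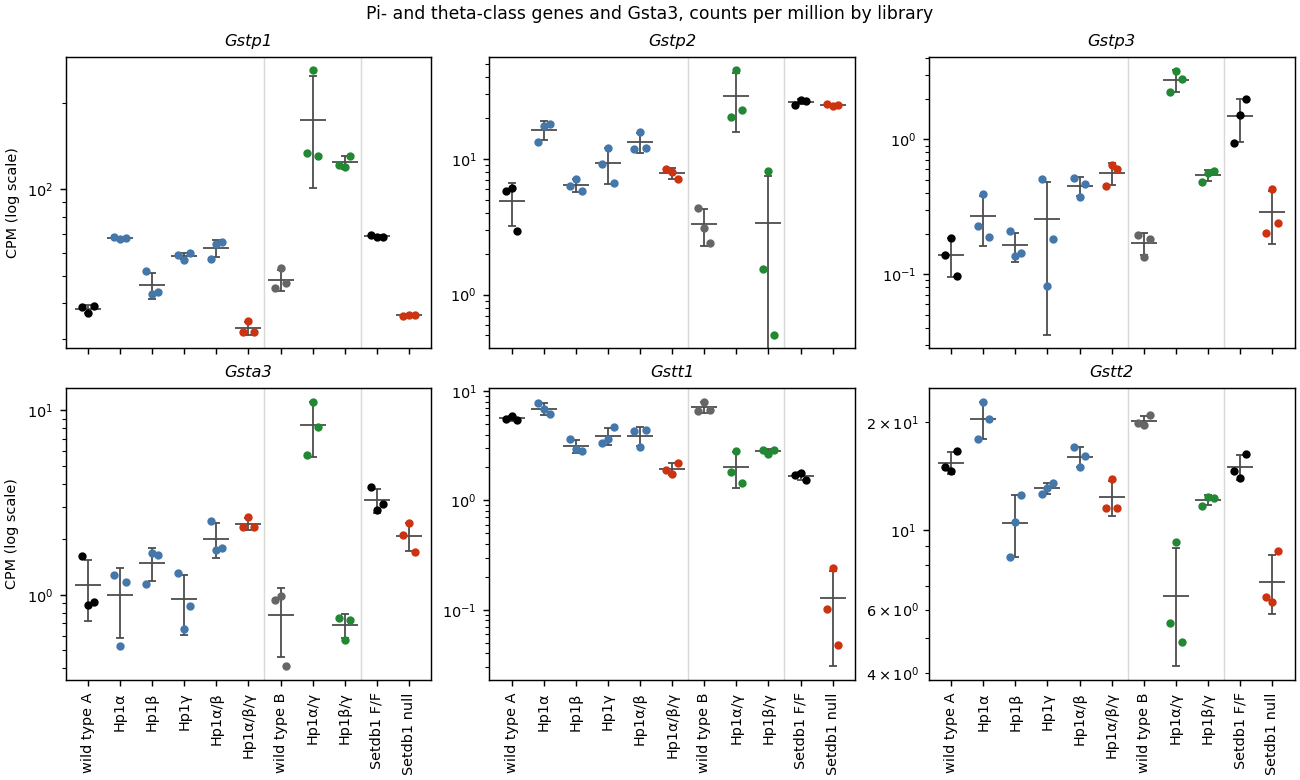
Levels of the pi-class genes, *Gsta3*, *Gstt1* and *Gstt2* in CPM on log axes by condition. Points are libraries, bars the mean and SD of 3 libraries (a bar whose lower end is at or below 0 runs off the axis). *Gstp2* lies between 20.2 and 44.9 CPM in *Hp1α/γ* cells and between 24.6 and 27.3 CPM in both *Setdb1* conditions.

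Among the remaining members, *Mgst3*, a membrane enzyme with transferase and peroxidase activity, had 5.81, 4.72 and 4.37 CPM in *Hp1α/β/γ* cells against 15.8, 16.1 and 16.3 CPM in set A (−1.72, SE 0.121, edgeR adjusted p = 1.24e-10). *Mgst1* stayed under 5 CPM and was called lower in *Hp1α/γ* and *Hp1α/β/γ* cells. *Gsto2*, whose enzyme reduces dehydroascorbate, was called higher in *Hp1α/β/γ* cells at 1.12 to 2.13 CPM against 0.139 to 0.481 CPM. It had 3, 5 and 10 counts in set A and 37, 43 and 28 in the triple knockout, and was tested in 2 of 7 mutants. In the triple knockout it passed the filter through the mutant libraries, so that this call is a description. The call was lost with at least 10 counts required in every library. *Gsto1*, its neighbour on chromosome 19, had 74.5 to 75.7 CPM there against 99.7 to 103 CPM in set A, a log2 fold change of −0.45. *Gstk1* was called lower in *Hp1α/γ* cells (−1.01), a call that was lost with RLE size factors and with DESeq2. *Gstz1*, an enzyme of tyrosine breakdown, was not called in any mutant.

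Whether the loss of *Hp1α* acted alike with and without *Hp1β* was tested as an interaction over set A, *Hp1α*, *Hp1β* and *Hp1α/β* ESCs, at an adjusted p under 0.05 alone. It was called for 8 of 27 members tested, while 45.0% of all genes were called. *Gpx1* had the largest negative value, with mean levels of 145 CPM in set A, 112 in *Hp1α*, 322 in *Hp1β* and 114 in *Hp1α/β* knockout ESCs and an interaction of −1.12 on the log2 scale (SE 0.0687, edgeR adjusted p = 7.18e-10). *Gstm3* had the largest positive value, with 5.64, 7.17, 3.48 and 11.3 CPM in the same order (1.35, SE 0.204, edgeR adjusted p = 2.94e-05). *Gstm6*, with 6.81, 7.06, 4.14 and 9.04 CPM, had a value of 1.08. *Gpx2*, with 6.52, 10.7, 8.82 and 9.24 CPM, had an interaction of −0.63 (SE 0.212, edgeR adjusted p = 0.022). That call was lost without *Hp1β* library 2 (−0.50), *Hp1α* library 2 (−0.59) or 3 (−0.58), or *Hp1α/β* library 1 (−0.55). With all 33 libraries in 1 fit, the interaction calls of *Gpx2* (edgeR adjusted p = 0.0724), *Gsta4* (0.254) and *Gstp1* (0.167) were lost.

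Genes of the wider pathway were taken from lists of glutathione metabolism and antioxidant defence, and counts use the same thresholds. Of all genes, 17.1% were called lower and 25.1% higher in *Hp1α/β/γ* cells. In *Hp1α/β/γ* cells, of 14 genes of glutathione synthesis and turnover tested (17 listed), 7 were lower and 1 higher, with a median log2 fold change of −0.95. The largest falls were *Slc7a11*, the cystine importer, with 0.504 CPM against 6.27 CPM in set A (−3.68), and *Chac1*, which degrades glutathione, with 2.15 CPM against 15.5 CPM (−2.88). *Gclc* and *Gclm*, both subunits of the enzyme that starts glutathione synthesis, had values of −1.55 and −2.08, and are named here after their values were seen. Of 18 genes of glutathione reduction, glutaredoxins, thioredoxins and peroxiredoxins, 5 were lower, led by *Txnrd3* (−2.05) and *Prdx6* (−1.73), and *Txnip*, an inhibitor of thioredoxin, was higher at 625 CPM against 93.5 CPM (2.71). Of 16 tested NRF2 pathway genes outside the family (17 listed), 9 were lower and 1 higher, and *Slc7a11*, *Gclc* and *Gclm* are in both this list and the first. *Cbr3*, a carbonyl reductase, had a value of −3.45, and the gene that rose was *Hmox1*, for heme oxygenase (1.33). Of 3 tested superoxide dismutases and catalase, 2 were lower (*Sod1*, −1.30, and *Cat*, −1.59). Of 9 genes of selenocysteine machinery 1 was called, *Scly*, which was higher (1.09), and of 13 other selenoproteins tested 3 were lower and 4 higher. The 10 relatives by fold outside the name rule had 8 tested, of which 3 were lower and 1 was higher. The ESC markers fell in the same cells, with 9 of 12 lower, and of 11 endoderm markers tested 6 were higher and 2 lower. Summed over all 16, the endoderm markers had 156 to 159 CPM against 414 to 415 CPM in set A. *Lamb1* (242 CPM) and *Lama1* (158 CPM) made up most of the set A sum, which therefore says little of the others. The 11 tested endoderm markers had a median log2 fold change of 1.49. The part of the ESC and endoderm markers in the values of the members was not tested.

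For *Hp1α/γ* cells, 2 of 14 genes of glutathione synthesis and turnover were called, both lower, and 3 of 16 NRF2 pathway genes, all lower, where 16.3% of all genes were called lower. Of the feeder markers 9 of 12 tested were lower there and 6 of 12 ESC markers were higher, and their part in the values of the members was not tested. *Selenop*, the selenium transport protein, had 2.60 CPM against 17.2 CPM in set B (−2.76) and *Selenoh* 153 CPM against 65.8 CPM (1.16). In bulk RNA a lower share of cells of a type and less RNA per cell cannot be told apart.

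In *Setdb1* knockout cells, whose values chose these families, 12 members were past the thresholds as lower and 3 as higher of 26 that passed the filter, where 11.4% of all genes were called lower and 18.5% higher. Nothing is read from this count, which includes *Gpx2*. *Gpx2* had 5, 4 and 3 counts, or 0.252, 0.191 and 0.143 CPM, and 133, 132 and 105 counts, or 6.62, 7.36 and 6.14 CPM, in *Setdb1* F/F ESCs. Its log2 fold change was −5.07 (SE 0.256), a 33.6-fold lower level, which ranked 11 among the falls of 16457 genes tested. *Gpx7* had 3.48, 3.49 and 3.29 CPM against 12.7, 13.4 and 11.8 CPM (−1.89). *Gpx8* was higher with 7.01, 6.08 and 7.15 CPM against 1.69, 1.78 and 2.28 CPM (1.81). *Gpx4* had 356, 351 and 365 CPM against 454, 462 and 457 CPM (−0.37), and *Gpx1* 127 to 131 CPM against 119 to 127 CPM.

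Of the 7 mu genes 6 were lower in *Setdb1* knockout cells, with a median log2 fold change of −2.09. *Gstm2* had 1.01, 1.44 and 1.43 CPM against 11.9, 11.9 and 11.8 CPM (−3.20, SE 0.148). *Gstm1* had 7.76, 7.42 and 6.91 CPM against 32.1, 29.5 and 32.0 CPM (−2.09, SE 0.0744). *Gstm3* had 5 counts in 1 library and 0 in the other two, which allows up to 0.144 and 0.143 CPM there, against 1.23 to 1.64 CPM. *Gstm4* had 4.89, 4.54 and 5.53 CPM against 10.6, 9.70 and 9.94 CPM (−1.02), and *Gstm5* had overlapping groups (−0.21). *Gstm1* and *Gstm2* were at lower levels in *Setdb1* F/F ESCs than in the *wild-type* libraries, a difference between lines that was not tested.

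Other classes also had low values there. *Gsta4* had 107, 108 and 102 CPM against 304, 301 and 304 CPM (−1.53). *Gstt1* had 2, 5 and 1 counts against 34, 32 and 26 counts (−3.63), and *Gstt2* had 6.50, 6.31 and 8.72 CPM against 14.6, 14 and 16.3 CPM (−1.06). *Gstp1* had 36.2, 36.6 and 36.6 CPM against 69.0, 68.2 and 68.1 CPM (−0.92), whereas *Gstp2* had 25.6, 24.6 and 25.1 CPM against 25.1, 27.3 and 26.5 CPM. *Gstk1* was higher with 5.90, 6.31 and 4.48 CPM against 1.54, 2.06 and 0.760 CPM (1.91). In the pathway lists, 7 of 15 tested genes of glutathione synthesis and turnover were lower and 1 higher, and 5 of 16 NRF2 pathway genes were lower and 1 higher. Of all genes, 11.4% were called lower and 18.5% higher in *Setdb1* knockout cells.

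*Hp1α/β/γ* cells were compared with set A, which is *wild-type* and also served other mutants, and *Setdb1* knockout cells with floxed ESCs. Both sets of values thus rest on unlike controls and are placed side by side as a description. The log2 fold changes in *Hp1α/β/γ* and in *Setdb1* knockout cells were −1.73 and −5.07 for *Gpx2*, −1.73 and −1.89 for *Gpx7*, −1.29 and −1.53 for *Gsta4*, and −1.82 and −2.09 for *Gstm1*. For *Gstm2* they were −0.68 and −3.20, for *Gstt3* −1.93 and −0.60, and for *Mgst3* −1.72 and −0.59. *Gstp3* had values of 1.94 and −2.31, at under 5 CPM in all libraries. The ESC markers summed to lower values than in the control in both cell types, as given above. The endoderm markers summed to 69.5 to 73.7 CPM in *Setdb1* knockout cells against 330 to 342 CPM in *Setdb1* F/F ESCs, with 8 of 13 tested lower and 1 higher. Such a sum follows the genes with the highest levels. The median log2 fold change of the tested endoderm markers was −1.22 there and 1.49 in *Hp1α/β/γ* cells. Trophoblast markers summed to 178 to 185 CPM in *Hp1α/β/γ* cells against 94.3 to 104 CPM in set A, with 5 of 9 tested higher and 1 lower. The sums were larger in *Hp1α/β* (349 to 367 CPM) and *Hp1β/γ* cells (386 to 395 CPM). Against *Hp1α/β* ESCs, 2 of 9 tested were higher and 2 lower in the triple knockout. *Setdb1* knockout cells had 66.2 to 71.9 CPM against 79.4 to 81.4 CPM in *Setdb1* F/F ESCs, with 2 of 5 tested lower and 0 higher. The part of these markers in the values of the members was not tested.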

How the data were processed

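RNA-seq of 33 mouse ESC libraries (11 conditions, 3 libraries each) was analysed from 8 tables, each with a mutant and its control. The estimated counts were deposited by the authors as read counts assigned to genes, without normalization, and the TPM values deposited by the authors are scaled for transcript length and library. The submitters' processing notes name TopHat2 2.1.1, RSEM, edgeR and GRCm38.p5, and the study's methods describe a stranded total RNA kit and DESeq2. Columns with the authors' own fold changes, p-values, calls, group means and annotation were not used. Control columns repeated between tables were equal and were used once.

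Estimated counts were rounded, and genes were kept by filterByExpr (minimum count 10). Each comparison was fitted alone with edgeR 4.0.16 (quasi-likelihood test, TMM, R 4.3.3), with Benjamini-Hochberg adjustment over all genes. As in the study, calls required an adjusted p under 0.05 with a log2 fold change beyond 1 in either direction, and the interaction an adjusted p under 0.05. Scripts were tested on simulated data. Total counts per library were 17330936 to 25743149, and floors (3 counts) cover counting error only.

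Members and lists were chosen with earlier results of these data known. Full values were given for members called with at least 5 CPM in the higher group (up to 10 in a comparison), *Gpx2* and *Gpx4*, and from each list the called genes with the largest fold changes. The study's methods name biological replicates of each sample, and a figure legend names independent experiments for cells given Cre or a control vector. How far the cultures of a line were separate is not described, so p-values may still hold technical spread. Same-numbered libraries had correlations of −0.0461 to 0.0738 of their deviations from group means, so that the numbers were not treated as pairs. Alternatives were RLE size factors, DESeq2 1.42.0, other filters, no fold threshold, a term for the replicate number (replicate block), *wild-type* sets exchanged, 1 fit of all libraries, and leaving out each library.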

Additional observations from a re-analysis of the deposited data

Results flagged for a closer look

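For 8 members the change with loss of *Hp1α* differed between ESCs with and without *Hp1β*, by edgeR's interaction test over all genes. The difference (log2 change without *Hp1β* minus that with *Hp1β*) was −1.12 for *Gpx1*, −0.63 for *Gpx2*, −0.23 for *Gsta4* and −0.38 for *Gstp1*. It was 0.49 for *Gstm1*, 1.35 for *Gstm3*, 1.08 for *Gstm6* and 0.83 for *Gstz1*. With all 33 libraries in 1 fit, *Gpx2* (edgeR adjusted p = 0.0724), *Gsta4* (0.254) and *Gstp1* (0.167) were not called. In the fit of 12 libraries the edgeR adjusted p ran from 7.18e-10 (*Gpx1*) to 0.022 (*Gpx2*). Of all genes tested, 45.0% were called by this test.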

How the results depend on the processing

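No named value changed direction. Of 789 alternative values for members named outside the *Setdb1* comparison, 761 kept their side of the threshold, 17 no longer passed and 11 newly passed. Without the fold threshold, called members numbered 12 in *Hp1α*, 14 in *Hp1β*, 11 in *Hp1γ*, 16 in *Hp1α/β*, 19 in *Hp1β/γ* and 28 in *Hp1α/β/γ* cells. In *Hp1α/γ* cells 6 were higher and 10 lower. There were 23 in *Hp1α/β/γ* against *Hp1α/β* and 9 in set B against set A. The share of all genes at this setting is not given, so nothing is read from these counts. With the fold threshold and no filter beyond 1 count, called members numbered 2 in *Hp1α*, 2 in *Hp1β* and 1 in *Hp1γ*. With set B as the control they numbered 2, 5 and 1 in these mutants. With all 33 libraries in 1 fit they numbered 2 in *Hp1α*, 2 in *Hp1β* and 5 in *Hp1α/β*. With at least 10 counts in every library, 9 rather than 15 members were past the thresholds in *Setdb1* knockout cells, a filter that removes members with few counts in 1 group. The shares of all genes at these other settings are not given either, and nothing is read from their counts.

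Leaving out 1 library gave 1 to 2 called members in *Hp1α*, 1 to 2 in *Hp1β*, 0 to 1 in *Hp1γ*, 2 to 4 in *Hp1α/β*, 9 to 14 in *Hp1α/γ*, 5 to 6 in *Hp1β/γ*, 13 to 15 in *Hp1α/β/γ*, 13 to 16 in *Hp1α/β/γ* against *Hp1α/β*, 0 to 0 in set B against set A, 12 to 15 in *Setdb1* knockout cells and 7 to 10 for the interaction. The shares of all genes without each library are not given here, so nothing is read from these counts. The changed calls of the single knockouts were *Mgst2*, *Gstz1* and *Gstp2*, which were gained. The cause was not tested.

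With a replicate block, 15 rather than 14 members were called in *Hp1α/β/γ* against *Hp1α/β* and 10 rather than 8 for the interaction, and the other counts were equal. The shares of all genes with the block are not given. The library numbers were not shown to pair the samples, and 13 of 30 samples correlated best with their own number. Depth limits members under 1 CPM, such as *Gstp3* and *Gsto2*.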
